A study of Mus musculus with 6 samples.

Results

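Small heat shock proteins are compact chaperones built around a conserved alpha-crystallin domain. They assemble into oligomers, bind proteins that begin to unfold and hold them until Hsp70 chaperones refold them or pass them on for degradation, without using ATP themselves. Bag3 is a co-chaperone of Hsp70 that also binds small heat shock proteins, above all Hspb8, and carries damaged proteins such as torn filamin to autophagy, a route called chaperone-assisted selective autophagy. Several of these genes are best known from muscle, where they guard actin and intermediate filaments, and Hspb1, Cryab and Bag3 are classic targets of the heat shock factor Hsf1. ATXN3, the protein missing from the knockout cells, is a deubiquitinase with roles in protein quality control and in transcription.

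The 10 genes described here are 9 small heat shock protein genes (Hspb1, Hspb2, Hspb3, Hspb6, Hspb7, Hspb8, Hspb9, Cryab and Cryaa) and Bag3. They were taken by name, and every probe set annotated to only 1 of them was used, which gave 17 probe sets of 45037 and 10 genes of 18193 on the array. None of the probe sets that list several genes named a member. The cells were Atxn3-KO mouse embryonic fibroblasts (MEFs) and Atxn3-WT MEFs, connective tissue cells grown from embryos of knockout mice and wild-type mice, with 3 arrays per genotype and no treatment named in the labels. The study describes its mice as littermates and the 3 replicates as biological, and the age of the embryos and the number of MEF isolations behind the replicates are not given in the sources used here. The p-values therefore speak to the spread among these 6 samples alone, and that spread may be technical.

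Values are log2 levels from RMA, a method that corrects background, equalizes the arrays and combines the probes of a probe set, so that a difference of 1 is a 2-fold difference. RMA takes out any change that all genes share, which these values therefore cannot show. The targeted gene was measured first. The brighter Atxn3 probe set lay between 3.43 and 3.73 on the Atxn3-KO arrays and between 6.53 and 6.81 on the Atxn3-WT arrays. The medians of the arrays lay between 5.97 and 6.0. Because no detection calls come with the values, 44 probe sets for olfactory receptors, genes of the nose that fibroblasts do not use, served as a guide to background, and their 95th percentile lay between 5.26 and 5.43 on the 6 arrays. The fibroblast markers Col1a1, Col1a2, Col3a1 and Vim had mean log2 levels above 13 in both genotypes. They were picked after values were seen from a list of 12, in which 2 genes lay below the array median on all 6 arrays. At an adjusted p under 0.05 from limma, 2 genes of that list were higher in Atxn3-KO MEFs. Another 6 were lower, Col1a2 and Col3a1 among them. In these bulk samples, more cells of a type and more RNA per cell cannot be told apart.

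Of the 10 genes, Hspb8, Hspb6, Hspb1 and Cryab rose in Atxn3-KO MEFs, Hspb9 fell at a level in the background range, and Hspb2, Hspb3, Hspb7, Cryaa and Bag3 did not pass the test. At an adjusted p under 0.05 from limma, 7 of the 17 probe sets were higher, against 12.5% of all probe sets, and 1 was lower, against 13.5%. With the study's own thresholds (2-fold, adjusted p no larger than 0.001), 3 of the 17 were higher, against 0.795% of all probe sets. The values of the Atxn3-KO arrays and the Atxn3-WT arrays did not overlap for 9 of the 17 probe sets, against 41.1% of all, so that a clean separation of the groups was common on these arrays. The 9 probe sets that lay above the array median on every array held all 7 that rose, against 20.7% higher among all probe sets that bright. The 3 past 2-fold belong to Hspb8 and Hspb6 alone, and the 7 that rose belong to Hspb8, Hspb6, Hspb1 and Cryab. Probe sets of 1 gene read the same transcripts and are not separate cases, so these shares count some genes more than once. These shares describe a list that was chosen with earlier results known.

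**Figure D1:**
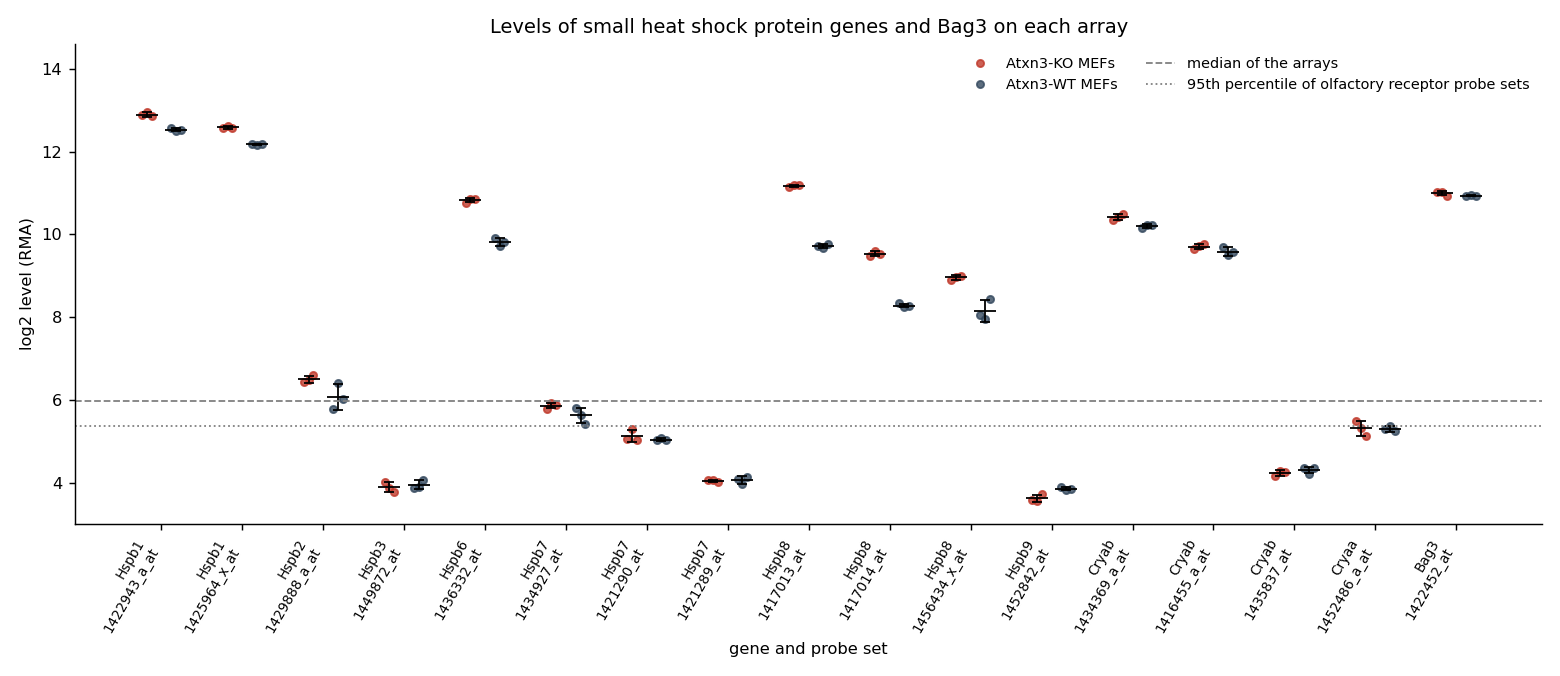
Log2 level (vertical axis, RMA) of each of the 17 probe sets (horizontal axis) on the 3 Atxn3-KO arrays (red, left) and the 3 Atxn3-WT arrays (dark blue, right); black marks are means and bars are SD. The 3 Hspb8 probe sets, Hspb6 and both Hspb1 probe sets show separate groups, Bag3 lies near 11 in both genotypes, and 7 probe sets lie below the dashed array median on all 6 arrays.

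Hspb8, also called Hsp22, is the main partner of Bag3 and feeds misfolded proteins to autophagy. Its gene lies on mouse chromosome 5 from base 116408491 to base 116422864 (GRCm38.p6). The brightest of its probe sets, 1417013_at, read 11.13, 11.19 and 11.18 on the Atxn3-KO arrays, against 9.71, 9.66 and 9.78 on the Atxn3-WT arrays. Every Atxn3-KO array stood more than 1 log2 unit above every Atxn3-WT array. The mean was 11.17 ± 0.029 in Atxn3-KO MEFs and 9.72 ± 0.056 in Atxn3-WT MEFs (SD, n = 3 each), a log2 fold change of 1.45 (95% interval 1.34 to 1.56), or 2.74-fold, with an adjusted p of 2.6e-06 from limma. It was also the single member probe set that passed limma's test against a change of 2-fold (adjusted p = 0.00313).

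The other probe sets of Hspb8 moved the same way by less. Probe set 1417014_at read 9.49, 9.59 and 9.52 in Atxn3-KO MEFs and 8.33, 8.24 and 8.27 in Atxn3-WT MEFs, which differ by 1.25 log2 units (95% interval 1.14 to 1.37; adjusted p = 5.19e-06). Probe set 1456434_x_at, whose suffix marks probes that other transcripts may share, read 8.90, 8.98 and 9.0 in Atxn3-KO MEFs and 8.05, 7.95 and 8.45 in Atxn3-WT MEFs. Atxn3-WT replicate 3 stood above the other Atxn3-WT arrays for this probe set, and the groups still did not overlap. It differed by 0.81 log2 units (95% interval 0.53 to 1.10; limma adjusted p = 0.00259). The 3 estimates thus span 1.76-fold to 2.74-fold for a single gene, and all 3 probe sets rose.

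Hspb6, or Hsp20, is a small heat shock protein of smooth, cardiac and skeletal muscle that binds actin-associated proteins and is phosphorylated when smooth muscle relaxes. Its gene lies on chromosome 7 from base 30552535 to base 30555443. The level of its probe set 1436332_at was 10.77, 10.85 and 10.85 on the Atxn3-KO arrays, against 9.92, 9.73 and 9.81 on the Atxn3-WT arrays. The groups were far apart relative to their spread, with means of 10.82 ± 0.048 in Atxn3-KO MEFs and 9.82 ± 0.095 in Atxn3-WT MEFs (SD, n = 3 each). The log2 fold change was 1.00 (95% interval 0.86 to 1.15; adjusted p = 4.01e-05 from limma). At 2.01-fold, Hspb6 lay on the 2-fold line, so that it counts as past that line only just.

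Hspb1, called Hsp25 in the mouse, is the broadly expressed member of the family and protects actin filaments and unfolding proteins. The gene spans bases 135887919 to 135889563 of chromosome 5. Probe set 1422943_a_at read 12.88, 12.95 and 12.85 in Atxn3-KO MEFs and 12.57, 12.50 and 12.51 in Atxn3-WT MEFs. Probe set 1425964_x_at read 12.56, 12.62 and 12.58 in Atxn3-KO MEFs and 12.18, 12.15 and 12.19 in Atxn3-WT MEFs. The suffix of 1425964_x_at marks probes that other transcripts may share. The change of Hspb1 was small but well outside the spread of the replicates on both probe sets. Their log2 fold changes were 0.37 (95% interval 0.26 to 0.48; adjusted p = 0.0013) and 0.41 (95% interval 0.32 to 0.51; adjusted p = 4.51e-04 from limma), that is 1.29-fold and 1.33-fold.

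Cryab, alpha-B crystallin, is a chaperone of lens, muscle and glia that binds desmin and other intermediate filaments. Its 3 probe sets did not give 1 answer. The brightest, 1434369_a_at, read 10.35, 10.42 and 10.50 on the Atxn3-KO arrays, against 10.15, 10.23 and 10.22 on the Atxn3-WT arrays, with a log2 fold change of 0.23 (95% interval 0.10 to 0.35; adjusted p = 0.019). The next, 1416455_a_at, read 9.64, 9.71 and 9.77 in Atxn3-KO MEFs and 9.70, 9.49 and 9.56 in Atxn3-WT MEFs, with overlapping groups and a log2 fold change of 0.12 (95% interval -0.032 to 0.27; adjusted p = 0.234 from limma). The dimmest, 1435837_at, stayed under the 25th percentile on each of the 6 arrays. The call for Cryab was lost when any of 3 arrays was left out, with adjusted p-values of 0.056 without Atxn3-KO replicate 2, 0.0511 without Atxn3-KO replicate 3 and 0.0647 without Atxn3-WT replicate 1.

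Bag3, the partner of Hspb8, did not pass the test. Its probe set 1422452_at read 11.03, 11.02 and 10.94 on the Atxn3-KO arrays and 10.92, 10.94 and 10.93 on the Atxn3-WT arrays. One Atxn3-KO array fell within the range of the Atxn3-WT arrays. The mean was 10.99 ± 0.050 in Atxn3-KO MEFs and 10.93 ± 0.0088 in Atxn3-WT MEFs (SD, n = 3 each). The log2 fold change was 0.063 (95% interval -0.042 to 0.17; adjusted p = 0.368 from limma), so that the interval holds 0 and changes of up to 1.12-fold. Bag3 lies on chromosome 7 from base 128523583 to base 128546981.

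**Figure D2:**
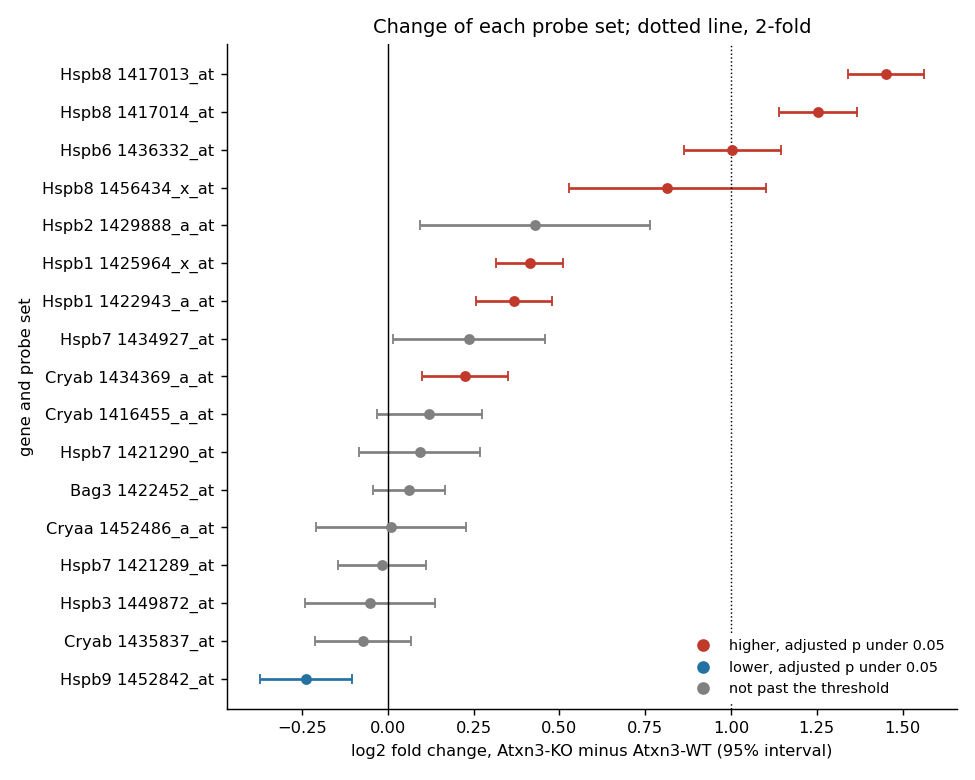
Log2 fold change, Atxn3-KO minus Atxn3-WT (horizontal axis), of each of the 17 probe sets (rows), with 95% intervals from limma; red points rose, the blue point fell and grey points missed the threshold of 0.05 for the adjusted p. The 2 upper Hspb8 probe sets lie beyond the dotted 2-fold line, Hspb6 lies on it, and the interval of Bag3 holds 0.

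Among the members known mainly from muscle, Hspb2 lay near the array median. Hspb2, which binds and activates the myotonic dystrophy kinase Dmpk, read 6.44, 6.47 and 6.6 in Atxn3-KO MEFs and 5.79, 6.40 and 6.03 in Atxn3-WT MEFs. The 3 Atxn3-KO values were the highest of the 6, with Atxn3-WT replicate 2 just under them. Its log2 fold change was 0.43 (95% interval 0.093 to 0.76) with an adjusted p of 0.0668 from limma, and leaving out single arrays moved the value between 0.29 (adjusted p = 0.149, without Atxn3-WT replicate 1) and 0.59 (adjusted p = 0.00602, without Atxn3-WT replicate 2). Hspb2 and Cryab are neighbours on chromosome 9, and in the annotation used here Hspb2 (bases 50751072 to 50752354) lies inside the span of Cryab (bases 50745951 to 50756636).

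Hspb3 and Hspb7 were low. Hspb3, a muscle protein that forms complexes with Hspb2, lay between 3.78 and 4.02 in Atxn3-KO MEFs and between 3.86 and 4.07 in Atxn3-WT MEFs, under each array's 25th percentile throughout. Hspb7, the cardiovascular member, had 3 probe sets, all below the array median on every array, with log2 fold changes of 0.24, 0.092 and -0.017 and adjusted p-values of 0.114, 0.433 and 0.861 from limma. The brightest of these, 1434927_at, read 5.79, 5.92 and 5.87 in Atxn3-KO MEFs and 5.81, 5.63 and 5.43 in Atxn3-WT MEFs, and leaving out single arrays moved its value between 0.14 (adjusted p = 0.248, without Atxn3-WT replicate 3) and 0.33 (adjusted p = 0.0316, without Atxn3-WT replicate 1). Cryaa, alpha-A crystallin of the lens, had a log2 fold change of 0.0080 (95% interval -0.21 to 0.23) at a level below the array median throughout.

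Hspb9, a member known from testis, was the single probe set that fell. It read 3.59, 3.55 and 3.72 in Atxn3-KO MEFs and 3.90, 3.82 and 3.86 in Atxn3-WT MEFs, a difference of -0.24 log2 units (95% interval -0.37 to -0.11; limma adjusted p = 0.0196). All 6 values lay below the 25th percentile of their array and below the 95th percentile of the olfactory receptor probe sets, so this difference lies within the background range. The call was lost when Atxn3-KO replicate 1 (adjusted p = 0.0637), Atxn3-KO replicate 2 (0.0677), Atxn3-WT replicate 1 (0.0669) or Atxn3-WT replicate 3 (0.0573) was left out.

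**Figure D3:**
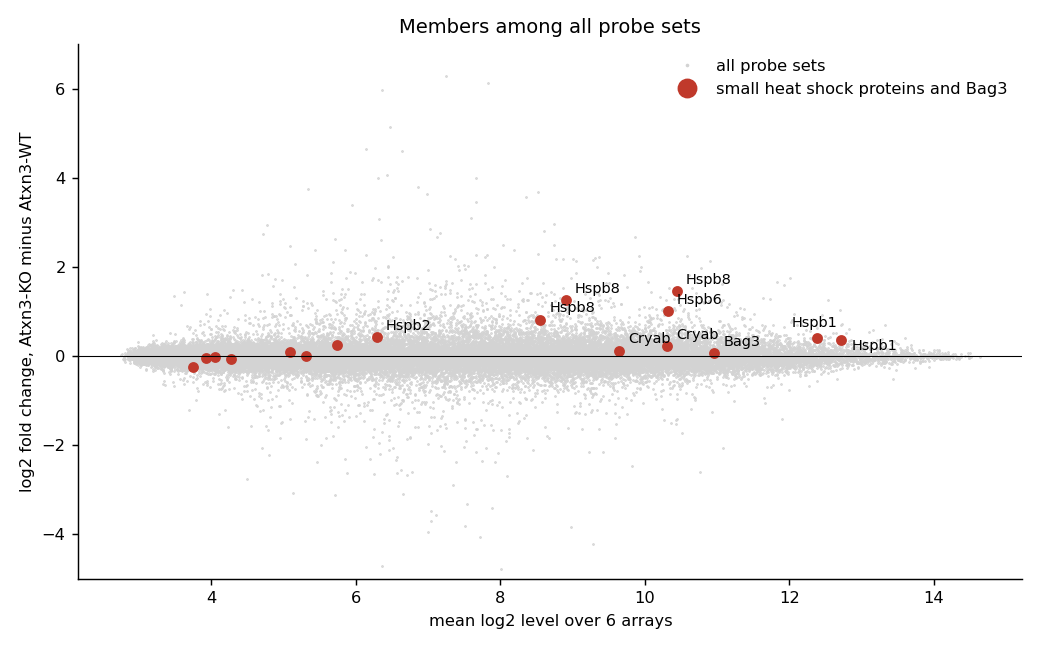
Log2 fold change, Atxn3-KO minus Atxn3-WT (vertical axis), against mean log2 level over the 6 arrays (horizontal axis), for all 45037 probe sets (grey) and the 17 of small heat shock proteins and Bag3 (red). Hspb8 reaches 1.45 and Hspb6 1.00, Hspb1 sits at 0.37 and 0.41 near the bright end, and the unlabelled red points at the left are the dim probe sets.

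By its brightest probe set, each gene could be set beside other genes of the same response. Of the 10 member genes, 4 were higher and 1 was lower, against 17.1% higher and 14.7% lower among all 18193 genes, and their median log2 fold change was 0.23, against 0.0021 for all genes. Of 21 other targets of heat shock factors, 18 were measured, of which 2 rose, 3 fell and 13 missed the threshold in limma. Their median log2 fold change was -0.048 and their values ran from -0.40 to 0.27. The inducible Hsp70 genes Hspa1a and Hspa1b had log2 fold changes of 0.13 (adjusted p = 0.0823) and -0.050 (adjusted p = 0.498). Dnajb1, an Hsp40 partner of Hsp70, had -0.063 (adjusted p = 0.369), and Hsp90aa1, the inducible Hsp90, had -0.022 (adjusted p = 0.755). The targets that rose were Fkbp4, a co-chaperone of Hsp90, with 0.27 (standard error 0.053), and Hspa4l, an Hsp110 nucleotide exchange factor, with 0.27 (standard error 0.056). On their other probe sets Fkbp4 had 0.29 (adjusted p = 0.0184 from limma) and 0.042 (adjusted p = 0.812), and Hspa4l had 0.029 to 0.15. Mt2, a metallothionein, had -0.40 (standard error 0.084) and Hspa4, another Hsp110 protein, -0.19 (standard error 0.042). The other Hspa4 probe sets had -0.64 (adjusted p = 3.12e-04 from limma), -0.36 (adjusted p = 9.74e-04) and -0.12 (adjusted p = 0.423). Hsph1, the third gene that fell, had -0.15 (standard error 0.045), a call that was lost whichever array was left out. Its other probe set had -0.21 (adjusted p = 0.00901 from limma). The call for the brightest Hspa4 probe set was lost without Atxn3-WT replicate 3 (adjusted p = 0.0552). Of the heat shock factors, Hsf2 was higher with 0.29 (standard error 0.054) and Hsf4 was lower with -0.41 (standard error 0.074), both near or below the array median. Hsf2 had mean levels of 5.45 in Atxn3-KO MEFs and 5.16 in Atxn3-WT MEFs, the second within the range of the olfactory receptor probe sets. Another Hsf2 probe set had -0.050 (adjusted p = 0.668). Hsf1 was not analysed here.

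A broad list for selective autophagy with Hspb8 and Bag3 also held Lats1, Amotl1, Yap1 and Tgfb1i1, whose part in this route was not examined here. Of its 15 measured genes, 2 rose, 2 fell and 11 missed the limma threshold, beside 17.1% higher and 14.7% lower among all genes. The median log2 fold change of these 15 was -0.030. With the probe set of smallest p in place of the brightest, 3 were higher and 5 were lower. Tgfb1i1, a focal adhesion LIM protein also called Hic-5, rose by 0.38 (standard error 0.047), and Stub1, the ubiquitin ligase CHIP that tags the cargo, rose by 0.18 (standard error 0.042). The autophagy receptors Nbr1 and Sqstm1 were both lower, Nbr1 with -0.29 (standard error 0.043) and Sqstm1 with -0.16 (standard error 0.041). Hspa8, the constitutive Hsp70 of the complex, had 0.014 (95% interval -0.097 to 0.13). Filamin C (Flnc), a client, had 0.073 (adjusted p = 0.389). Among 5 other Bag genes, Bag1, which links Hsp70 to the proteasome, had 0.17 (standard error 0.045, adjusted p = 0.0302). By the brightest probe set the other 4 did not pass the test. Bag4 had -0.24 (adjusted p = 0.00997 from limma) and -0.18 (adjusted p = 0.0193) on its other probe sets. The calls for Bag1 and Sqstm1 were lost whichever array was left out, and that for Stub1 without Atxn3-KO replicate 2 or 3 or Atxn3-WT replicate 2 or 3, with adjusted p-values of up to 0.0627. Another 2 genes were listed beside the family, and their kinship to it was not examined here. Hspb11, a protein of cilia, had 0.28 (standard error 0.042, adjusted p = 0.0024 from limma), and Odf1, of the sperm tail, had -0.014 (adjusted p = 0.885).

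Filament and muscle genes, the known clients and surroundings of these chaperones, were mixed. Of 14 genes for filaments and Z-discs, 3 were higher and 1 was lower, beside 17.1% and 14.7% of all genes, with a median of -0.027. Dmpk, the kinase bound by Hspb2, rose by 1.28 log2 units (95% interval 1.11 to 1.44; limma adjusted p = 2.55e-05), and its other probe set had 0.081 (adjusted p = 0.203). Ldb3, a Z-disc protein also called Cypher, had a mean level of 6.39 in Atxn3-KO MEFs and 5.14 in Atxn3-WT MEFs, the second within the range of the olfactory receptor probe sets, and a measured difference of 1.25 (standard error 0.068), with 0.45 (adjusted p = 0.0143) and 0.25 (adjusted p = 0.0859) on its other probe sets. Nes, the intermediate filament nestin, had -0.51 (standard error 0.045), and Pdlim7, a PDZ-LIM adaptor of actin filaments, had 0.19 (adjusted p = 0.0193), a call lost without Atxn3-KO replicate 2 or Atxn3-WT replicate 2. The other Pdlim7 probe sets had 0.67 (adjusted p = 1.22e-04 from limma) and 0.12 (adjusted p = 0.208). Desmin (Des) had -0.026 (adjusted p = 0.758) and vimentin (Vim) had -0.029 (adjusted p = 0.655).

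**Figure D4:**
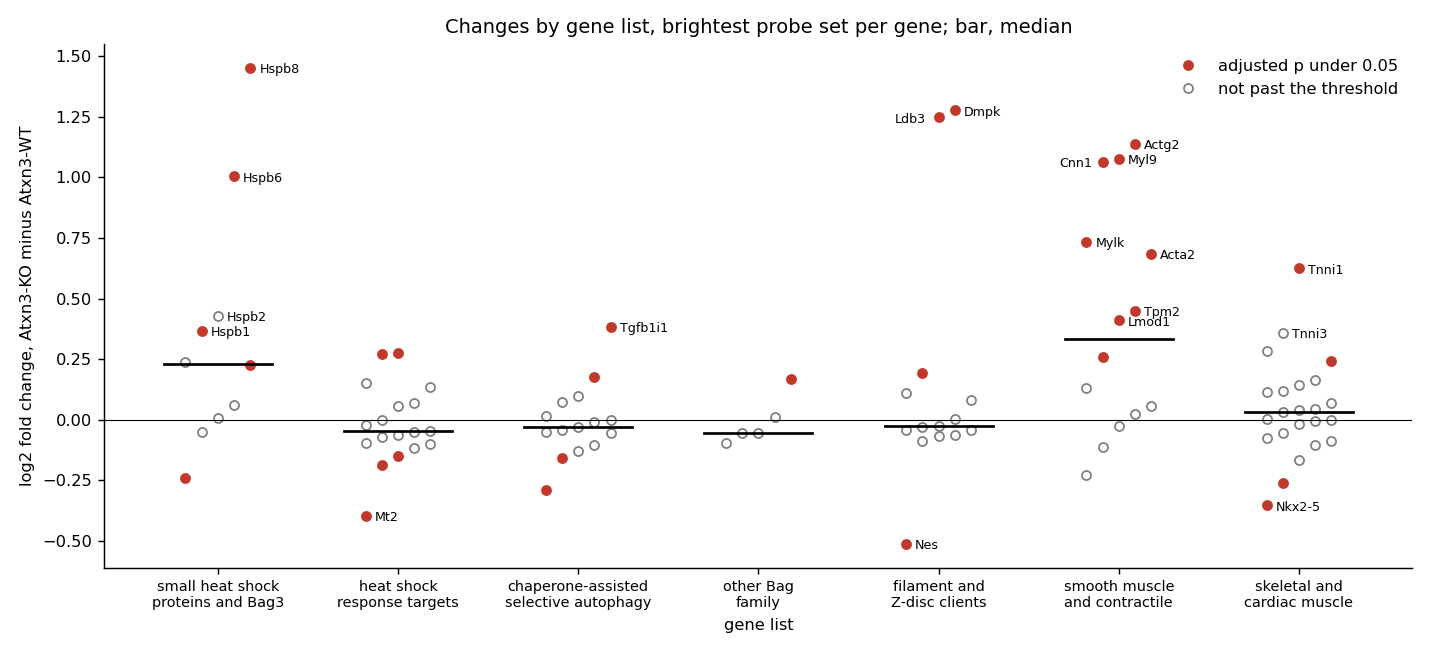
Log2 fold change, Atxn3-KO minus Atxn3-WT (vertical axis), of each gene by its brightest probe set, in 7 gene lists (horizontal axis); filled points passed an adjusted p of 0.05, open points did not, and the bar is the median. Hspb8 and Hspb6 stand at 1.45 and 1.00, while the 18 heat shock response targets lie between -0.40 and 0.27.

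Markers of contractile cells also moved. Of 14 smooth muscle and contractile genes, 8 rose and 0 fell by limma's adjusted p, beside 17.1% higher and 14.7% lower among all genes, while 9 were higher and 1 was lower at an unadjusted p under 0.05. The mean log2 level of the list lay between 9.73 and 9.79 on the Atxn3-KO arrays and between 9.32 and 9.38 on the Atxn3-WT arrays, and its median log2 fold change was 0.33. Actg2 and Acta2, smooth muscle actins, had 1.14 and 0.69, and Myl9, a myosin light chain, and Cnn1, calponin, had 1.08 and 1.06. Mylk, the kinase that activates myosin, had 0.73. Myh11, the myosin that defines mature smooth muscle, had 0.024 (adjusted p = 0.798) at a mean level of 4.55 in Atxn3-KO MEFs and 4.52 in Atxn3-WT MEFs. The part of contractile cells in the rise of Hspb6 and Hspb8 was not tested. Of 23 skeletal and cardiac muscle markers, 2 were higher, Tnni1 with 0.62 and Tnni2 with 0.24, and 2 were lower, Nkx2-5 with -0.35 and Mb with -0.26. The call for Tnni1 held whichever array was left out, while Tnni2 and Nkx2-5 each kept it in 1 of 6 such fits and Mb in 2, so that 1 gene of the list was called without Atxn3-WT replicate 2. In that list 18 of the 23 genes, Myod1 and Myog among them, lay below the array median on all 6 arrays. Its mean level lay between 4.93 and 4.94 in Atxn3-KO MEFs and between 4.84 and 4.91 in Atxn3-WT MEFs.

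The other cell type lists gave the following counts by the same limma test, to be read beside 17.1% higher and 14.7% lower among all genes. Of 12 fibroblast markers, 2 were higher, Lum with 0.60 at a mean level of 4.30 in Atxn3-KO MEFs and 3.70 in Atxn3-WT MEFs, and Pdgfrb with 0.25, and 6 were lower, led by Ddr2 with -0.41 and Fap with -0.40. Fap had mean levels of 4.96 in Atxn3-KO MEFs and 5.36 in Atxn3-WT MEFs, within or near the background range. S100a4, another of the 6, kept its call in 1 of the 6 fits that left out an array. Without Atxn3-WT replicate 1 the calls for Lum (adjusted p = 0.0594) and Pdgfrb were lost, and 5 genes of the list were called. The call for Pdgfrb was also lost without Atxn3-WT replicate 3. By the brightest probe set, none of 8 macrophage and 8 endothelial markers passed, with 3 and 0 past an unadjusted p of 0.05, and 5 and 7 of them lay below the array median throughout. Without Atxn3-WT replicate 2, Cd68 was called (adjusted p = 0.0442). The brightest were Csf1r with -0.037 (0.22, adjusted p = 0.0194, and 0.19, adjusted p = 0.2, on its other probe sets) and Lyz2 with 0.16 (adjusted p = 0.0512) for macrophages, and Kdr with 0.063 and Cldn5 with -0.081 for endothelium. Of 12 lens markers, Mip was higher with 0.25 and Crybb2 was lower with -0.23, and 9 lay below the array median. Mip had mean levels of 4.97 in Atxn3-KO MEFs and 4.72 in Atxn3-WT MEFs, within the background range, and lost its call in 4 of the 6 fits that left out an array (Atxn3-KO replicate 1 or 2, Atxn3-WT replicate 2 or 3). Of 8 epithelial markers, Krt18 and Epcam were higher. Krt18 had mean levels of 5.63 in Atxn3-KO MEFs and 4.36 in Atxn3-WT MEFs, the second within the background range. Epcam had 0.38 on its brightest probe set, whose suffix marks probes that other transcripts may share. The other Epcam probe set had 0.12 (adjusted p = 0.213 from limma). Of 8 neural markers, Map2 was higher with 1.55 while Mbp and Tubb3 were lower with -0.98 and -0.95.

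Promoter sequence was compared as a description, because the heat shock element, the site of Hsf1, is known from this family. Any link between the sequence and the changes on the arrays was not tested. RefSeq promoter windows of 300 bases (250 before and 50 after a transcript start, GRCm38.p6) covered 8 of the 10 genes in 9 windows, Cryab and Hspb2 being the exceptions. A pair of facing units, GAANNTTC or TTCNNGAA, which read the same on both strands, occurred in the windows of 5 of the 8 genes: Hspb1 with 2 matches, and Hspb3, Hspb6, Hspb8 and Bag3 with 1 each. Such a pair occurred in 8 of 18 genes among the heat shock response targets and in 17.0% of all 27025 genes with a window. By window, the members had it in 5 of 9, against 15.1% of all 32851. A run of 3 units in alternating orientation, which contains 2 overlapping pairs, occurred in 0 of the 8 genes, in 4 of the 18 targets and in 0.662% of all genes. A match is a description of letters, and no binding was measured here.

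In 4 of the 8 genes the match had the same 8 letters, GAAGTTTC, in the same orientation as the gene. This was noticed after the sequences were read. The same letters, on either strand, occurred in 1.35% of all genes and in 0 of the 18 heat shock response targets. The 30 bases around each are shown because Hspb8, Hspb6 and Hspb1 rose while Bag3, with the same letters, did not pass the test. They are written 5′ to 3′ on the strand of the gene, with the match in capitals, for Hspb8 at chr5:116422844-116422873 (minus strand), Hspb6 at chr7:30553170-30553199, Hspb1 at chr5:135887791-135887820 and Bag3 at chr7:128523603-128523632 (plus strand).
Hspb8: agaagccaggaGAAGTTTCtaggctcgcga
Hspb6: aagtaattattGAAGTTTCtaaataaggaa
Hspb1: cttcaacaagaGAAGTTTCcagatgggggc
Bag3: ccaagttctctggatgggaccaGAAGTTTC

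The position of the match differed between the genes. It began 117 bases before the start of Hspb1 and 120 bases before the second annotated start of Hspb6, but at base 3 of the Hspb8 transcript and base 43 of the Bag3 transcript. The 250 bases before the Hspb1 start (chr5:135887669-135887918, plus strand) hold both of its matches, in capitals.
Hspb1: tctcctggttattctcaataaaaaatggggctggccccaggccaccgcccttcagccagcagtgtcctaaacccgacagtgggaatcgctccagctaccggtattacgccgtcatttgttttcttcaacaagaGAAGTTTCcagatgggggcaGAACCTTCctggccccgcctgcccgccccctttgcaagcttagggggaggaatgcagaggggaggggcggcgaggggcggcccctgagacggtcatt

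Hspb6 has a pair of annotated starts, and only the second window holds the heat shock pair. Its 250 bases (chr7:30553051-30553300, plus strand) are shown with that match in capitals, and they also hold the letters TATAAA from 29 to 24 bases before the start. TATAAA and CCAAT were searched after the first results were seen. TATAAA on either strand occurred in 13.6% of all windows and also 11 bases before the start of Hspb3. The first Hspb6 window has neither, but holds CCAAT on either strand 4 times, and 37.4% of all windows hold it at least once. The array does not tell which start is used.
Hspb6: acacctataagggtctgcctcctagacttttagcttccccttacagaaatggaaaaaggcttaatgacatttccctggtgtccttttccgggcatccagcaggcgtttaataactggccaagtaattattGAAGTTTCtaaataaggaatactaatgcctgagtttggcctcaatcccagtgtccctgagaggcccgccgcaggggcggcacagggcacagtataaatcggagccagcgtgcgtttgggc

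**Figure D5:**
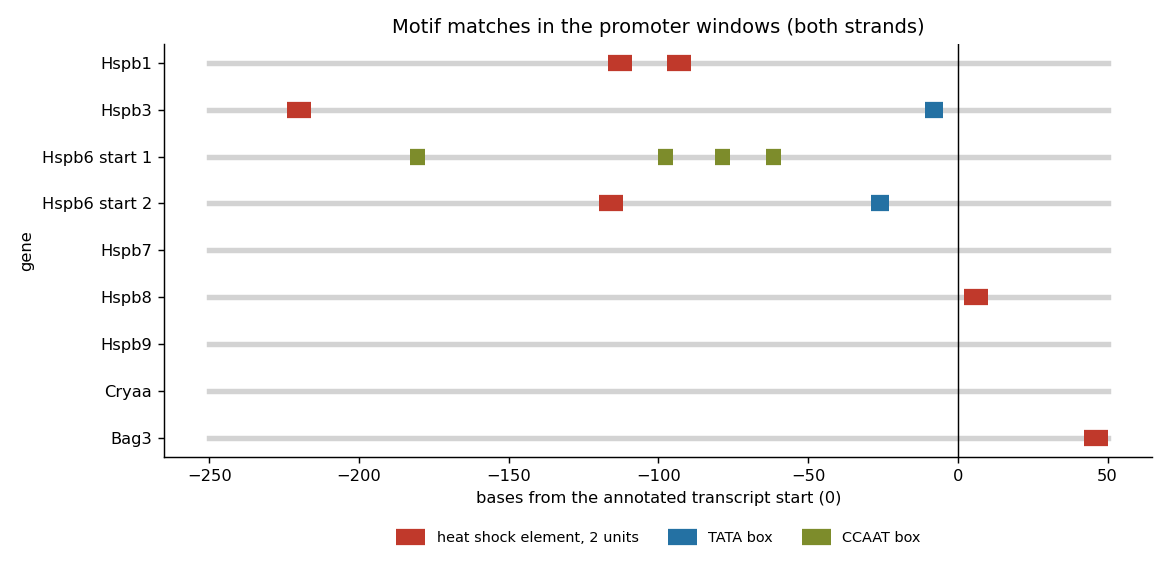
Matches to the heat shock pair (red), the TATA box (blue) and the CCAAT box (green) in the promoter windows of 8 genes (rows), by distance in bases from the annotated transcript start (horizontal axis, start at 0). Hspb1 and the second start of Hspb6 carry the pair upstream of the start, Hspb8 and Bag3 carry it after the start, and Hspb7, Hspb9 and Cryaa hold none.

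None of the members lies on chromosome 12, which holds Atxn3, and the genes that rose lie on 3 chromosomes. The nearest measured genes beside Hspb8, chosen by position alone, were Prkab1, with a log2 fold change of -0.071 (adjusted p = 0.329), and Srrm4os, with -0.13 (adjusted p = 0.349 from limma). Prkab1 lies 383987 bases from Hspb8. Srrm4os had a mean level of 4.71, within the background range. On either side of Hspb6, Arhgap33 had 0.46 (adjusted p = 0.00302) and Psenen 0.19 (adjusted p = 0.0122), both higher but by less than Hspb6. Beside Hspb1, Srrm3 had -0.17 (adjusted p = 0.0451) and Ywhag -0.067 (adjusted p = 0.39). Outside the span of Cryab, Dixdc1 had 0.54 (adjusted p = 1.94e-04) and 1110032A03Rik 0.073 (adjusted p = 0.474 from limma). The measured gene 2310030G06Rik overlaps an end of that span and lies nearer than Dixdc1. It had 0.22 (adjusted p = 0.307 from limma) at a mean level of 5.06. The genes whose levels followed the brightest Hspb8 probe set most closely over the 6 arrays, by Pearson's r, were Serpinf1 (0.9999), Rab3b (0.9999) and Prdx2 (0.9998), with log2 fold changes of 1.75, 1.23 and 0.33. The 6 arrays share 2 genotypes, and 909 probe sets had r above 0.99, so that such a likeness was common.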

How the data were processed

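RNA from 3 Atxn3-KO and 3 Atxn3-WT MEF samples had been read on Affymetrix mouse expression arrays. The authors deposited log2 values, normalized by robust multi-array average (RMA). Of 45101 probe sets, 64 controls were left out. Of the rest, 34945 name 1 gene, 932 several and 9160 are unnamed here. Limma 3.58.1 in R 4.3.3 (lmFit, eBayes) fitted the difference between the genotypes, all arrays weighted alike, since the sources used here do not give the authors' weighting scheme. No filter on low values was applied, and the Benjamini-Hochberg adjustment ran over all 45037 probe sets. The members and lists were chosen with earlier results of these data known. Genes were named by rule: all members, Atxn3, up to 4 called genes per list with the largest change, otherwise up to 2 bright ones, and 3 that resemble the leading member. Hspa1a, Hspa1b, Dnajb1, Hsp90aa1, Hspa8, Flnc, Des, Vim, Odf1, Myh11, Myod1, Myog, Col1a1, Col1a2, Col3a1, Hsph1, Acta2, Pdgfrb, Cd68, Bag4, S100a4 and the genes next to members were added as landmarks after values were seen. Promoters came from RefSeq, and protein sequences were not used here. In simulated data for this comparison (45037 probe sets), the fit called 12% of 50 changed by 0.25 log2 units, 96% of 50 changed by 0.5 and 100% of 50 changed by 1. Few probe sets were changed there, while 26% were called in the data. The Benjamini-Hochberg adjustment was thus stricter in the simulation, and its shares do not carry over to the data. Within a genotype, arrays correlated at 0.998 to 0.999. The number of arrays limits the precision. The alternatives comprised a replicate block, estimated array weights, added normalization, exclusion of dim probe sets, other variance models and thresholds, and leaving out each array.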

Additional observations from a re-analysis of the deposited data

How the results depend on the processing

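The rise of Hspb8, Hspb6 and Hspb1 kept its direction and its side of the threshold under all 13 alternative fits, with log2 fold changes of 1.43 to 1.48 for the brightest Hspb8 probe set, 0.96 to 1.05 for Hspb6 and 0.34 to 0.39 for the brightest Hspb1 probe set. Bag3 stayed between 0.045 and 0.091 and never passed. Of 214 refitted changes, 198 kept direction and call, 7 lost the call (Cryab and Hspb9), 4 gained it (Hspb2 and Hspb7) and 5 turned sign, all of them among dim probe sets without a call. Hspb2 passed with a variance trend (adjusted p = 0.0161 from limma) and without dim probe sets (0.0322). Over the arrays left out in turn, Cryaa ran from -0.082 to 0.10, Hspb3 from -0.12 to 0.0099 and the dimmest Hspb7 probe set from -0.065 to 0.020. Holm adjustment called 3 member probe sets in place of 8, and the test against 2-fold kept 1 of 3. Leaving out an array gave 2 to 3 called genes in the autophagy list, against 4, with 2 without Atxn3-KO replicate 2 or 3 or Atxn3-WT replicate 2 or 3. It gave 3 to 4 heat shock response targets, against 5, with 3 without Atxn3-WT replicate 3. It gave 6 to 9 member probe sets, and 2 past 2-fold without Atxn3-KO replicate 2 or 3 or Atxn3-WT replicate 2. Without dim probe sets, which leaves out Hspb9, 8 member probe sets were higher. With each gene's probe set of smallest p, the autophagy list had 8 calls, 3 higher and 5 lower. With 3 units required, 0 promoters matched, against 5 genes. The replicate numbers did not pair the arrays: deviations of same-numbered arrays correlated at 0.097, -0.068 and -0.013, and 2 of 6 arrays correlated best with their own number. With a replicate block the counts stayed at 8 and 3. Calls for changes of about 0.25 log2 units or less were often lost when 1 array was left out. Those for Bag1 and Sqstm1 were lost in every such fit, while that for Crybb2 with -0.23 was kept.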
